A study of Homo sapiens with 54 samples.

Results

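The 10 genes described here respond to low oxygen or carry out and steer glycolysis. They are SLC2A1, HK2, PFKFB3, LDHA, PDK1, VEGFA, ADM, CA9, NDRG1 and ANKRD37. They were chosen by name as the rows of the deposited table that carry these symbols, which gave 10 of 58870 genes, with 1 row for each symbol. RNA was sequenced from A549, an established human lung adenocarcinoma line. One set of cells carried a vector for USP18 (USP18 cells), and the control set carried the vector alone (empty-vector cells). USP18 is the protease that removes the ubiquitin-like protein ISG15 from its targets. Both cell types received DMSO vehicle or a compound that the labels give by code for 48 h. CP14 and CP18 were each used at 1, 2.5 and 5 µM, whereas CP2 was used at 2 and 5 µM. This gave 18 groups with 3 replicates each and 54 libraries. No label names a low-oxygen treatment, so all values describe cells in which oxygen was not a stated variable. The promoter of the vector, and how many transfected populations or clones each cell type came from, are not given in the sources used here. The study's methods speak of independent biological replicates for experiments in general, but the labels do not say whether the sequenced replicates were separate cultures. The p-values therefore measure only the spread between these samples, which may be technical.

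Cells sense oxygen through the hypoxia-inducible factors (HIFs), dimers of an alpha subunit, encoded by HIF1A or EPAS1, with a partner encoded by ARNT or ARNT2. In oxygen the prolyl hydroxylases EGLN1, EGLN2 and EGLN3 mark the alpha subunit, which the VHL ubiquitin ligase then removes. Without the mark, HIF dimers bind short DNA motifs and turn on genes for glucose uptake, glycolysis, blood vessel growth and pH control. Many lung cancers, A549 cells included, run glycolysis in ample oxygen as well, and other regulators also act on these genes.

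Library totals ranged from 16673228 to 25609062 counts with a median of 19701304. The 10 genes differed widely in the counts behind their values, from 3 to 262 per library for CA9 and 9 to 39 for ANKRD37 up to 15313 to 59765 for LDHA, and all 10 passed the filter on low counts in every comparison below. USP18 itself checked the labels. It stood at 10.6, 10.7 and 11.1 CPM (counts scaled to the library total) in the vehicle libraries of empty-vector cells and at 1302, 1292 and 1328 CPM in those of USP18 cells. Across treatments it lay between 8.77 and 12.3 CPM in empty-vector cells and between 947 and 2115 CPM in USP18 cells, and the 3 highest values were those of 5 µM CP14. Cell type markers are given in CPM of the library total, without TMM scaling. KRT8 (1326 to 6242 CPM) and KRT18 (1739 to 5123 CPM), keratins of epithelial cells, were high in every library. KRT19 (3.70 to 52.9 CPM) and EPCAM (1.38 to 14.6 CPM), also epithelial, were low. Among markers of other cells, CD3E was at 0 in all 54 libraries, DCN in 44 and PTPRC in 38. COL1A1 (3.64 to 14.0 CPM), COL3A1 (0.152 to 3.90 CPM) and CD14 (0.0520 to 4.03 CPM) were detected at low levels in every library. The lists of fibroblast, endothelial and erythroid markers summed to at most 15.1, 0.596 and 0.664 CPM.

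The DNA upstream of the genes is shown for the 3 members with the largest changes and a stored promoter, because HIF dimers recognise the letters ACGTG or GCGTG. Promoters were available from RefSeq (GRCh38.p14) for 8 of the 10 genes in 12 windows, some genes having several start sites. The 250 bases before the start are printed 5′ to 3′ in lower case, with each match to ACGTG or GCGTG on either strand (read as CACGT or CACGC on the other) in capitals. For LDHA and HK2, which have 2 windows each, the one nearer the annotated start of the gene is printed. All 3 lie on the plus strand: CA9 at chr9:35673678-35673927, LDHA at chr11:18394313-18394562 and HK2 at chr2:74833877-74834126.
CA9: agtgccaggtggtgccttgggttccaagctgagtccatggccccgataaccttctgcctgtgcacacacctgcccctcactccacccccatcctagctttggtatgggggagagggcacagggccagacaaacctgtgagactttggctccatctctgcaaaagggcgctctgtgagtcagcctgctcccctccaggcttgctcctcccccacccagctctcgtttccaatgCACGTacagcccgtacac
LDHA: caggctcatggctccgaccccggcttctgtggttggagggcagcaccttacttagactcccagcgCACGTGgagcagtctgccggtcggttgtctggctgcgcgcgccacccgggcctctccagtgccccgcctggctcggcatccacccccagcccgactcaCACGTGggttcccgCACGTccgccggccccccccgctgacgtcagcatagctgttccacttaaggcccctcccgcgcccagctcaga
HK2: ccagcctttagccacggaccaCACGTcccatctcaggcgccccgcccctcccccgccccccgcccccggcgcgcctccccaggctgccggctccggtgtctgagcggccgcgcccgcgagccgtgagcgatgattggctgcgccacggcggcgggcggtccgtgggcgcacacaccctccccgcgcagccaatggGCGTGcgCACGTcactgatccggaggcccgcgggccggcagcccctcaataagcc
The CA9 window held a single match, CACGT, at bases 18 to 14 before the start. In the LDHA window there were 5 matches, of which 4 overlapped in pairs as the palindrome CACGTG. The HK2 window held 3 matches, at bases 229 to 225, 55 to 51 and 48 to 44 before the start. The second windows of LDHA and HK2 held 1 and 6 matches. Of all 35116 promoter windows of this length, 18.5% held ACGTG, 32.2% held GCGTG and 43.2% held either motif. Of the 12 windows of the 10 genes, 10 held a match, and the SLC2A1 window and 1 of the PDK1 windows held none in these 250 bases. A match is a description of the letters and was not tested as a binding site.

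**Figure D1:**
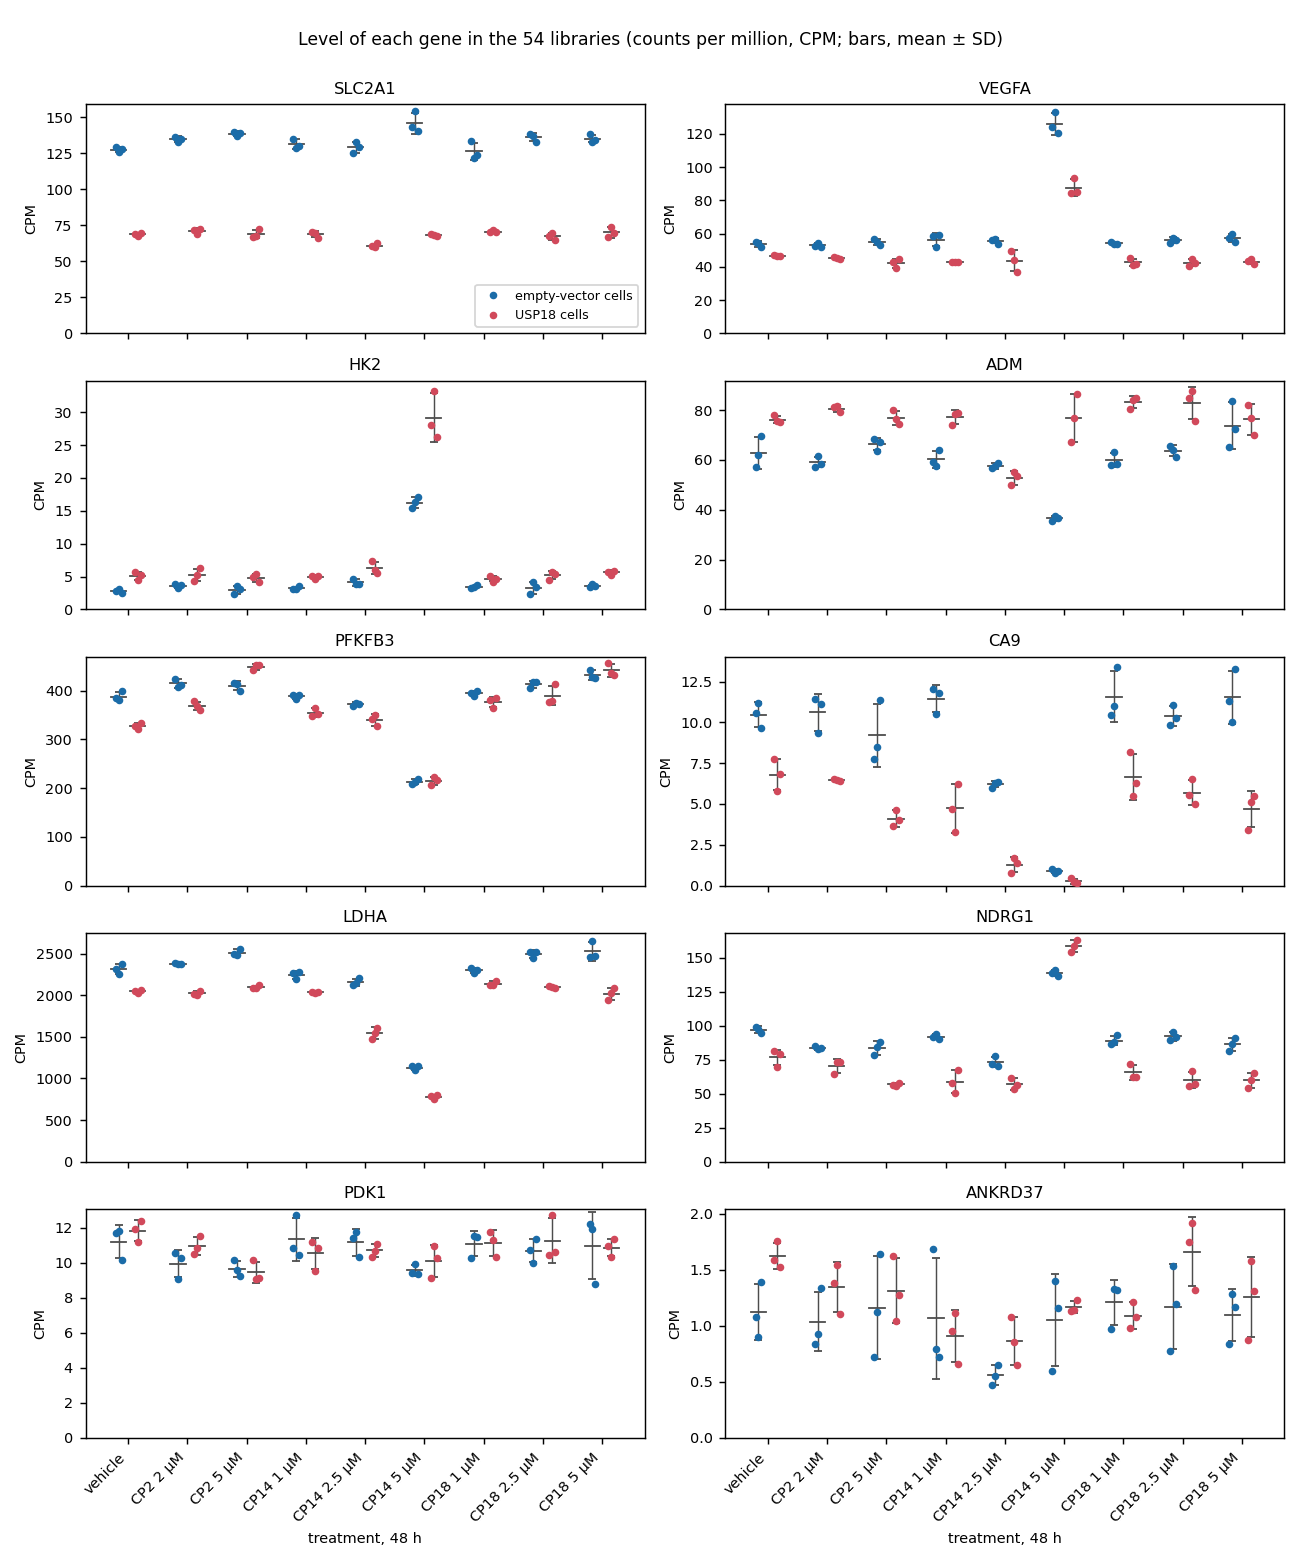
Levels of the 10 genes in CPM (linear axes from 0) in vehicle and the 8 treatments, for empty-vector cells (blue) and USP18 cells (red). Points are the 3 libraries of a group, and bars give the mean and SD. HK2, VEGFA and NDRG1 are highest and CA9, LDHA and PFKFB3 lowest with 5 µM CP14 in the cells of each vector, and SLC2A1 separates the cell types in every treatment.

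With 5 µM CP14 the 10 genes did not move together. In both cell types HK2, VEGFA and NDRG1 rose and CA9, LDHA and PFKFB3 fell, whereas ADM fell and SLC2A1 rose in empty-vector cells alone by the test. In empty-vector cells 9 of 10 genes passed an adjusted p under 0.05 in the edgeR quasi-likelihood test, where 63.2% of all genes tested passed. Of these, 4 were higher and 5 lower, against 31% and 32.1% of all genes. In USP18 cells 7 of 10 passed, against 68.6% of all genes, with 3 higher and 4 lower against 34.4% and 34.3%. The share called in USP18 cells was close to that of all genes, and PDK1, 1 of the genes called in the cells of each vector, passed narrowly. A log2 fold change beyond 1 in either direction was reached by 4 of the 10 genes in empty-vector cells (VEGFA, CA9, HK2 and LDHA), against 13.8% of all genes. It was also reached by 4 of the 10 in USP18 cells (CA9, NDRG1, HK2 and LDHA), against 18%. The summed level of 5 epithelial markers (KRT8, KRT18, KRT19, EPCAM and CDH1) was lower in the 6 libraries with 5 µM CP14 (3142 to 4653 CPM) than in the other 48 (5949 to 11520 CPM). NQO1 and AKR1B10, reductases that the marker list also held, were lower with 5 µM CP14 within each cell type too. In empty-vector cells they summed to 3248 to 3397 CPM with 5 µM CP14 and to 4189 to 4591 CPM in the other groups. The sums in USP18 cells were 1016 to 1100 CPM and 2141 to 2456 CPM. In the 6 libraries the mitochondrial share of counts (2.71 to 2.99%) lay within the range of the others (2.15 to 4.00%). Their part in the results on the 10 genes was not tested. In bulk RNA, fewer cells that express a gene and less of its RNA per cell cannot be told apart.

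HK2 changed most of the 5 members that act in glucose uptake and breakdown. HK2 encodes hexokinase 2, the inducible enzyme that traps glucose in the cell as glucose phosphate. HK2 stood at 2.78, 3.14 and 2.54 CPM with vehicle and at 15.4, 16.3 and 17.0 CPM with 5 µM CP14 in empty-vector cells. USP18 cells had 5.62, 4.49 and 5.26 CPM with vehicle and 28.1, 33.3 and 26.2 CPM with 5 µM CP14. The groups did not overlap in the cells of either vector. HK2 was 5.79-fold higher in empty-vector cells (log2 fold change 2.53, SE 0.13, edgeR adjusted p = 1.62e-13) and 5.67-fold higher in USP18 cells (log2 interval 2.28 to 2.73, SE 0.11, adjusted p = 9.93e-15). The response was not shown to differ between the cell types (difference -0.03, 95% interval -0.38 to 0.32, edgeR adjusted p = 0.923).

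LDHA, the lactate dehydrogenase subunit that turns pyruvate into lactate, moved the other way. Its level fell from 2316 ± 58.8 (SD, n = 3) to 1130 ± 25.4 CPM in empty-vector cells. The fall in USP18 cells was from 2047 ± 20.7 to 780 ± 20.4 CPM. The highest library with 5 µM CP14 was at 1146 CPM, and the lowest of the other 48 was at 1474 CPM. The log2 fold changes were -1.04 (SE 0.03, edgeR adjusted p = 5.10e-17) and -1.40 (SE 0.03, adjusted p = 3.26e-19). On the log2 scale the fall was 0.36 larger in USP18 cells (interaction edgeR adjusted p = 3.86e-06). LDHA values were fractional in all 54 libraries, and which other sequences shared its reads in the estimate was not examined, so its level is uncertain to that extent.

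PFKFB3 makes the sugar phosphate that activates phosphofructokinase, the committed step of glycolysis. It fell from 385, 380 and 399 CPM to 208, 212 and 218 CPM in empty-vector cells and from 328, 321 and 333 CPM to 207, 222 and 216 CPM in USP18 cells. With 5 µM CP14 the cell types overlapped, while the vehicle groups did not. The log2 fold changes were -0.87 (SE 0.04, edgeR adjusted p = 6.00e-15) and -0.61 (SE 0.04, adjusted p = 1.70e-12), and the difference between them was 0.26 (interaction adjusted p = 5.51e-04).

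SLC2A1, the glucose transporter GLUT1, changed little with treatment. In empty-vector cells it stood at 129, 126 and 128 CPM with vehicle and at 143, 154 and 141 CPM with 5 µM CP14, a 1.14-fold rise (log2 0.19, SE 0.04, edgeR adjusted p = 1.52e-04). USP18 cells had 69.1, 67.8 and 70.0 CPM with vehicle and 69.2, 68.4 and 67.4 CPM with 5 µM CP14 (log2 -0.02, 95% interval -0.11 to 0.07, adjusted p = 0.684). The response of USP18 cells minus that of empty-vector cells was -0.21 (interaction edgeR adjusted p = 0.00753).

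PDK1, the kinase that switches off pyruvate dehydrogenase and so limits the entry of pyruvate carbon into the TCA cycle, showed the smallest range of the 10 genes. Its 18 group means lay between 9.44 and 11.8 CPM, and each of the 17 pairs of neighbours in their order overlapped. The log2 fold change with 5 µM CP14 was -0.23 in the cells of each vector (SE 0.10 and 0.09), with edgeR adjusted p of 0.0440 (empty vector) and 0.0325 (USP18). The first call was lost with vehicle replicate 1 or 2 or any treated replicate left out (adjusted p from 0.0523 to 0.136). The second was lost without vehicle replicate 1 or 3 or treated replicate 1 or 3 (0.0756 to 0.205). DESeq2 made neither call.

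Of the secreted signals, VEGFA rose and ADM differed between the cell types. VEGFA encodes the vascular endothelial growth factor that drives vessel growth. It stood at 55.1, 54.5 and 51.7 CPM with vehicle and at 124, 133 and 120 CPM with 5 µM CP14 in empty-vector cells. The level in USP18 cells went from 47.2, 46.5 and 46.3 CPM to 84.6, 93.6 and 85.0 CPM. All 6 treated libraries lay above every other library, the highest of which was at 59.5 CPM. The rise was 2.34-fold in empty-vector cells (log2 1.23, SE 0.05, edgeR adjusted p = 2.34e-15) and 1.87-fold in USP18 cells (log2 0.90, SE 0.05, adjusted p = 6.05e-13), and it was smaller in USP18 cells by 0.32 (interaction adjusted p = 0.00129).

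ADM encodes adrenomedullin, a peptide that widens vessels. In empty-vector cells it fell from 57.0, 62.0 and 69.7 CPM to 35.6, 37.4 and 36.6 CPM with 5 µM CP14 (log2 -0.79, SE 0.08, edgeR adjusted p = 1.37e-08). USP18 cells had 77.9, 75.7 and 75.1 CPM with vehicle and 67.1, 77.0 and 86.7 CPM with 5 µM CP14. These groups overlapped (log2 0.01, 95% interval -0.14 to 0.15, adjusted p = 0.953). The difference between the responses was 0.80 (SE 0.11, interaction edgeR adjusted p = 7.58e-06).

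CA9 had the largest fold change of the 10 genes. CA9 encodes carbonic anhydrase IX, a membrane enzyme that controls pH outside the cell and a widely used marker of HIF activity. In empty-vector cells it stood at 10.6, 11.2 and 9.65 CPM with vehicle and at 1.04, 0.750 and 0.883 CPM with 5 µM CP14. In the cells with the USP18 vector CA9 was at 7.76, 5.81 and 6.84 CPM with vehicle and at 0.442, 0.198 and 0.154 CPM with 5 µM CP14. The last 3 values rest on 9, 4 and 3 counts, as compared with 156, 119 and 143 counts with vehicle. CA9 was 11.8-fold lower in empty-vector cells (log2 -3.56, SE 0.19, edgeR adjusted p = 6.08e-13) and 25.1-fold lower in USP18 cells (log2 -4.65, SE 0.25, adjusted p = 3.85e-13). The difference between these responses was -1.09 (95% interval -1.91 to -0.28, interaction adjusted p = 0.0429). DESeq2 and the fit of all 54 libraries did not make that call. It was also lost without replicate 1 or 3 of any of 3 groups (vehicle empty-vector, vehicle USP18 and treated empty-vector cells) or replicate 2 or 3 of treated USP18 cells (adjusted p from 0.0556 to 0.165).

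NDRG1, a stress-responsive gene induced by low oxygen and by iron loss, rose with 5 µM CP14. It went from 99.0, 97.6 and 94.3 CPM to 139, 141 and 137 CPM in empty-vector cells (log2 0.51, SE 0.04, edgeR adjusted p = 1.43e-09). The change in USP18 cells was from 81.1, 70.0 and 78.8 CPM to 154, 158 and 163 CPM (log2 1.04, SE 0.04, adjusted p = 8.71e-15). The rise was larger in USP18 cells by 0.53 (interaction edgeR adjusted p = 1.91e-06), and the order of the cell types turned from vehicle to 5 µM CP14.

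ANKRD37, a small ankyrin-repeat protein gene induced by HIF, had the lowest median count of the 10 genes, at 23 per library with a range of 9 to 39. With 5 µM CP14 it stood at 0.60, 1.40 and 1.16 CPM against 1.08, 0.898 and 1.39 CPM with vehicle in empty-vector cells. USP18 cells had 1.13, 1.14 and 1.23 CPM against 1.59, 1.76 and 1.53 CPM. The log2 fold changes of -0.11 (95% interval -0.75 to 0.53, edgeR adjusted p = 0.774) and -0.48 (-1.09 to 0.12, adjusted p = 0.144) did not pass.

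**Figure D2:**
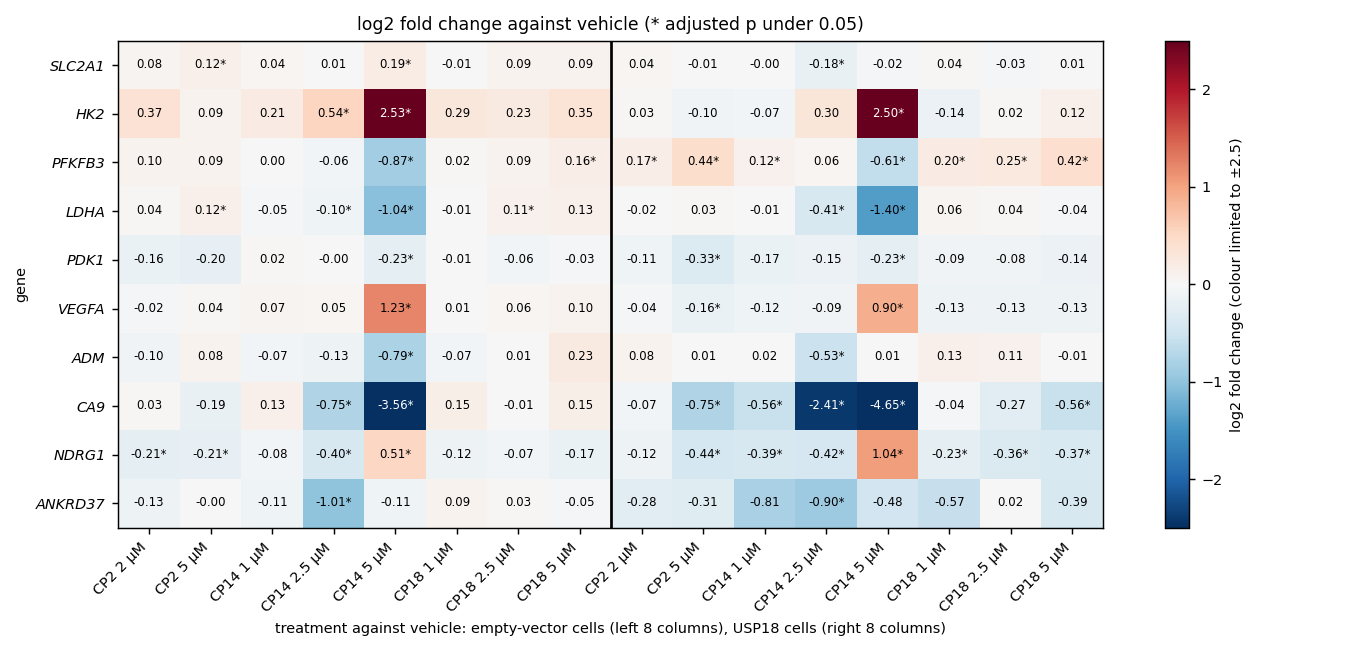
Log2 fold change of each gene against vehicle for the 8 treatments in empty-vector cells (left of the line) and USP18 cells (right), with colour limited to ±2.5 and an asterisk for an edgeR adjusted p under 0.05. The 2 columns of 5 µM CP14 hold the largest values, CA9 falls with 2.5 µM CP14 as well, and PFKFB3 is positive and NDRG1 negative in most other columns of USP18 cells.

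At 2.5 µM CP14 fewer genes moved. ANKRD37 had the largest fold change in empty-vector cells, though on few counts, and CA9 in USP18 cells. The sum of the 5 epithelial markers was lower here too, at 9615 to 10209 CPM as compared with 11160 to 11425 CPM in empty-vector vehicle and at 5949 to 6430 CPM as compared with 7212 to 7425 CPM in USP18 vehicle, and its part was not tested. There were 5 of 10 genes called in empty-vector cells, against 15.1% of all genes tested, and 6 of 10 in USP18 cells, against 32.7%. The 5 became 2 without vehicle replicate 3 or treated replicate 1, and 3 without vehicle replicate 1, where ADM was newly called (edgeR adjusted p = 0.0290). They were also 3 without treated replicate 2 and with DESeq2, which did not call HK2 and gave no adjusted p for ANKRD37. CA9 stood at 6.00, 6.28 and 6.33 CPM in empty-vector cells (log2 -0.75, SE 0.14, edgeR adjusted p = 0.00156) and at 0.753, 1.67 and 1.40 CPM in USP18 cells (log2 -2.41, SE 0.19, adjusted p = 3.48e-08). The fall in USP18 cells exceeded that in empty-vector cells by 1.65 (SE 0.24, interaction adjusted p = 5.15e-04). LDHA stood at 2158 ± 41.4 CPM in empty-vector cells (log2 -0.10, adjusted p = 0.0271) and at 1545 ± 69.2 CPM (SD, n = 3) in USP18 cells (log2 -0.41, SE 0.03, adjusted p = 2.44e-08). The LDHA call in empty-vector cells was lost without vehicle replicate 1 or 3 or treated replicate 1 or 2 (adjusted p from 0.0794 to 0.0980). NDRG1 fell by 0.40 and 0.42 in the 2 cell types (adjusted p = 1.35e-04 and 2.14e-05).

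Of the other calls at 2.5 µM CP14, ADM (log2 -0.53, SE 0.06, edgeR adjusted p = 1.24e-06) and SLC2A1 (-0.18, SE 0.04, adjusted p = 0.00104) fell in USP18 cells. HK2 rose in empty-vector cells from 2.82 ± 0.303 to 4.10 ± 0.459 CPM (SD, n = 3; log2 0.54, SE 0.16, adjusted p = 0.0295). DESeq2 did not make the HK2 call, and it was lost without vehicle replicate 1 or 3 or treated replicate 1 (adjusted p from 0.0847 to 0.119). ANKRD37 fell by 1.01 in empty-vector cells (adjusted p = 0.0331) and by 0.90 in USP18 cells (adjusted p = 0.0188). Both ANKRD37 calls were fragile. The first was lost without vehicle replicate 1 or 3 or any treated replicate (adjusted p from 0.0573 to 0.139), as well as with no filter on low counts or with the replicate block, and the second without vehicle replicate 2 or treated replicate 2 or 3 (0.0525 to 0.0781) and with DESeq2. At 1 µM CP14, none of the 10 genes passed in empty-vector cells with edgeR or DESeq2, none had an unadjusted p under 0.05, and 0.861% of all genes were called. In USP18 cells 3 of 10 passed, against 15.3%: NDRG1 (-0.39, adjusted p = 0.00101), PFKFB3 (0.12, adjusted p = 0.00547) and CA9 (-0.56, adjusted p = 0.0298). The CA9 libraries overlapped there with those of vehicle, and the call was lost without vehicle replicate 1 or 3 or treated replicate 1 or 2 (0.0701 to 0.172).

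**Figure D3:**
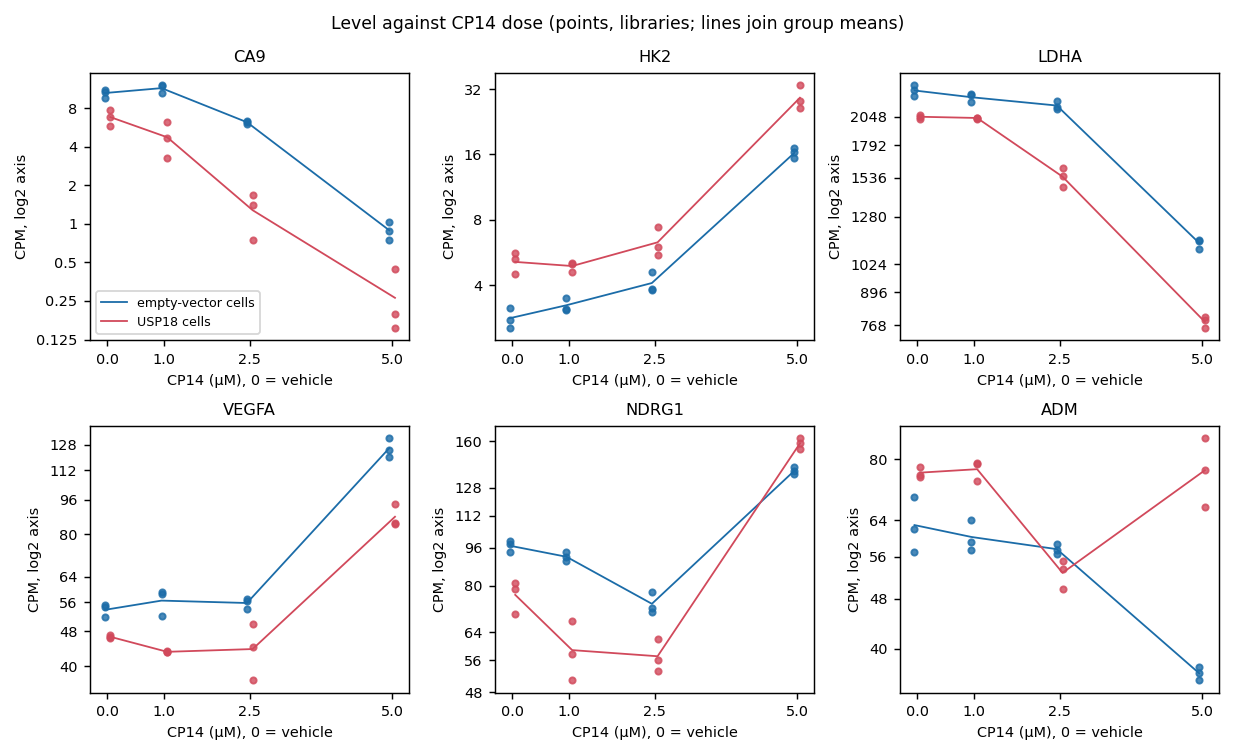
Levels of 6 genes in CPM (log2 axes) against CP14 dose in µM, with vehicle at 0, in empty-vector cells (blue) and USP18 cells (red). Points are libraries and lines join group means. CA9 and LDHA are lowest and HK2 highest at 5 µM, NDRG1 is lower at 2.5 than at 0 and 5 µM, and the ADM lines part at 5 µM.

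The dose course was not the same for all genes, so 5 and 2.5 µM CP14 were compared directly, a comparison added after the values had been seen. Of the 10 genes, 9 passed with the empty vector and 8 with USP18, against 58.8% and 61.6% of all genes. NDRG1, which had been lower than vehicle at 2.5 µM, was higher at 5 than at 2.5 µM by 0.92 (SE 0.05, edgeR adjusted p = 1.23e-11) in empty-vector cells and by 1.48 (SE 0.05, adjusted p = 3.53e-14) in USP18 cells. ADM was higher at 5 µM by 0.55 in USP18 cells (SE 0.07, adjusted p = 1.10e-06) and lower by 0.65 in empty-vector cells (SE 0.07, adjusted p = 3.33e-07). VEGFA was 2.27-fold and 2.01-fold higher at 5 µM (edgeR adjusted p = 5.77e-11 and 8.90e-10), although at 2.5 µM it had not passed against vehicle. ANKRD37 was higher at 5 µM in empty-vector cells by 0.91 (adjusted p = 0.0360), a call that DESeq2 did not make and that was lost without replicate 1 or 2 of 2.5 µM or replicate 2 or 3 of 5 µM (0.0823 to 0.188).

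CP2 and CP18 moved the 10 genes by less than 1 on the log2 scale throughout. The calls in USP18 cells fell on 5 genes, where NDRG1 and PFKFB3 passed most often. In empty-vector cells 1 of 10 genes passed with 2 µM CP2 (background 1.84%), 3 with 5 µM CP2 (12.1%), 0 with 1 µM CP18 (0.368%), 1 with 2.5 µM CP18 (5.96%) and 1 with 5 µM CP18 (8.4%). For 1 µM CP18 in empty-vector cells, 1 gene had an unadjusted p under 0.05 and DESeq2 called 0. In USP18 cells 1 passed with 2 µM CP2 (1.13%), 5 with 5 µM CP2 (19%), 2 with 1 µM CP18 (15.7%), 2 with 2.5 µM CP18 (14.2%) and 3 with 5 µM CP18 (10.7%). These comparisons share their vehicle libraries, so values are given side by side.

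PFKFB3 was higher than vehicle in USP18 cells with every CP2 and CP18 dose. The vehicle mean was 327 ± 6.20 CPM (SD, n = 3), and the treated means were 369 ± 9.04 and 449 ± 5.55 CPM with 2 and 5 µM CP2. With 1, 2.5 and 5 µM CP18 they were 377 ± 10.4, 390 ± 20.2 and 442 ± 13.5 CPM. The log2 fold changes were 0.17 and 0.44 for CP2 (edgeR adjusted p = 8.02e-04 and 1.00e-08) and 0.20, 0.25 and 0.42 for CP18 (adjusted p = 2.31e-04, 2.08e-05 and 5.76e-07). In empty-vector cells PFKFB3 passed with 5 µM CP18 alone (0.16, adjusted p = 0.0162), and that call was lost without vehicle replicate 1 or 2 (0.0824 to 0.0859). The response differed between the cell types with 5 µM CP2 by 0.36 (interaction adjusted p = 2.39e-04) and with 1 µM CP18 by 0.18 (adjusted p = 0.0148, or 0.0530 without replicate 2 of the USP18 vehicle).

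NDRG1 went the other way. The gene fell in USP18 cells by 0.44 with 5 µM CP2 (edgeR adjusted p = 1.26e-05) and by 0.23, 0.36 and 0.37 with 1, 2.5 and 5 µM CP18 (adjusted p = 0.0116, 2.57e-04 and 7.27e-04). The call at 1 µM CP18 was lost without vehicle replicate 1 or treated replicate 3 (0.0614 to 0.0670). Empty-vector cells showed log2 fold changes of -0.21 for NDRG1 with 2 and 5 µM CP2 (adjusted p = 0.0203 and 0.0115). The first of these was lost without vehicle replicate 1 or 2 or any treated replicate (0.0586 to 0.0960). CA9 fell in USP18 cells with 5 µM CP2 from 7.76, 5.81 and 6.84 CPM to 3.62, 4.65 and 4.00 CPM (log2 -0.75, SE 0.16, adjusted p = 0.00244). With 5 µM CP18 it stood at 3.41, 5.11 and 5.51 CPM (log2 -0.56, adjusted p = 0.0316, and 0.0927 to 0.194 without vehicle replicate 1 or 3 or treated replicate 1).

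The remaining calls with CP2 and CP18 were small. With 5 µM CP2, SLC2A1 and LDHA rose by 0.12 each in empty-vector cells (edgeR adjusted p = 0.0256 and 0.0143). The SLC2A1 call was lost without any vehicle replicate or treated replicate 1 or 2 (0.0622 to 0.139), and the LDHA call without vehicle replicate 1 or 2 (0.0644 to 0.0913). In USP18 cells with 5 µM CP2, PDK1 fell by 0.33 (adjusted p = 0.0126, and 0.0550 to 0.0565 without vehicle replicate 3 or treated replicate 2). VEGFA fell there by 0.16 (adjusted p = 0.0338), which was not called by DESeq2 or without the filter and was lost without any vehicle replicate or treated replicate 1 or 2 (0.0589 to 0.180). LDHA rose by 0.11 with 2.5 µM CP18 in empty-vector cells (adjusted p = 0.00871, or 0.0592 without treated replicate 1).

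**Figure D4:**
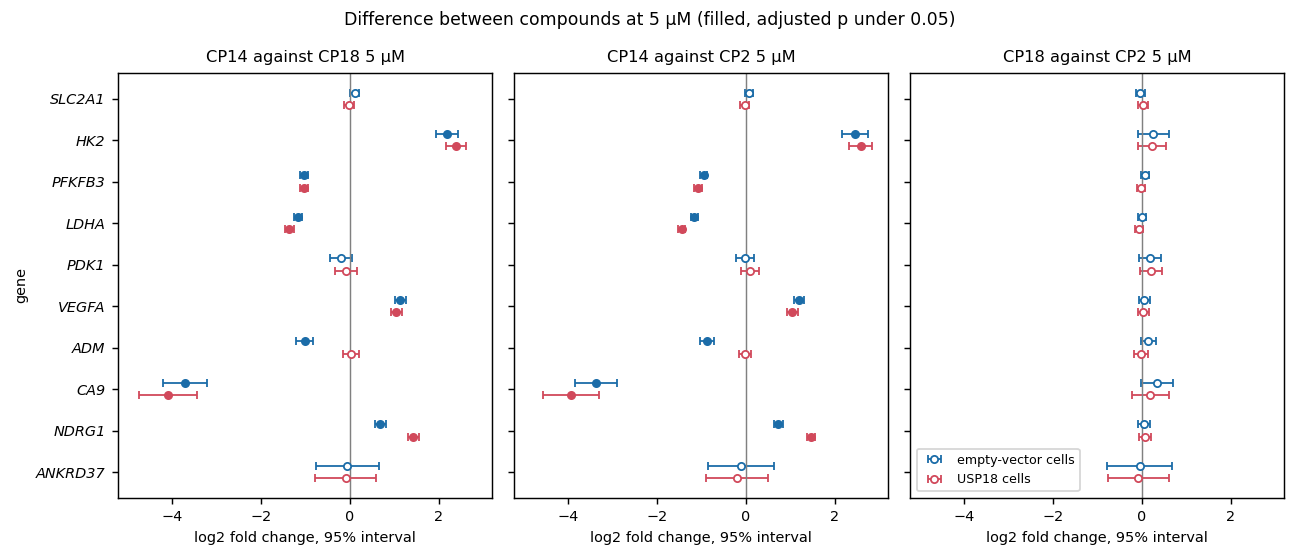
Difference between compounds at 5 µM for each gene on the log2 scale with 95% intervals, in empty-vector cells (blue) and USP18 cells (red), filled where the edgeR adjusted p was under 0.05. CP14 differs from CP18 and from CP2 in 7 and 6 genes, and no gene passes between CP18 and CP2.

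At 5 µM, CP14 differed from CP18 in more genes than CP18 did from CP2. Compounds were compared at matched dose and time in 10 comparisons, with p-values adjusted over all genes in each. CP14 and CP18 at 5 µM differed in 7 of 10 genes in empty-vector cells and 6 of 10 in USP18 cells, against 57.5% and 64.9% of all genes. CP14 and CP2 at 5 µM likewise differed in 7 and 6, against 59.4% and 67.5%. These counts were near the shares of all genes. CA9 was lower with CP14 than with CP18 by 3.70 (95% interval 3.21 to 4.19 lower) in empty-vector cells and by 4.09 in USP18 cells (edgeR adjusted p = 4.71e-11 and 5.76e-10). HK2 was higher with CP14 than with CP18 by 2.18 and 2.38 (adjusted p = 5.25e-12 and 1.10e-13), and VEGFA by 1.13 and 1.04 (adjusted p = 1.52e-12 and 6.61e-12). ADM was lower with CP14 than with CP18 by 1.02 in empty-vector cells (adjusted p = 1.23e-08), whereas USP18 cells gave a difference of 0.02 (95% interval -0.16 to 0.20).

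At 2.5 µM, CP14 and CP18 differed in 4 of 10 genes in empty-vector cells and 6 of 10 in USP18 cells, against 1.8% and 28.2% of all genes. CA9 was again lower with CP14, by 0.75 in empty-vector cells (edgeR adjusted p = 0.0132) and by 2.14 in USP18 cells (adjusted p = 4.31e-07). LDHA was lower by 0.21 and 0.44 (adjusted p = 0.00198 and 2.27e-08), and ADM by 0.64 in USP18 cells (adjusted p = 1.80e-07). In empty-vector cells the calls for CA9 and NDRG1 were lost without CP14 replicate 1 or 3 or CP18 replicate 2 or 3 (0.0552 to 0.0725). The PFKFB3 call was lost without any of the 6 libraries (0.0867 to 0.155). In USP18 cells SLC2A1 was lost without replicate 2 of either compound (0.0568 to 0.0608), and ANKRD37 without CP14 replicate 2 or 3 or CP18 replicate 1 or 2 (0.0823 to 0.111) and with DESeq2. At 1 µM, CP14 and CP18 differed in 0 of 10 genes in the cells of each vector by edgeR, against 0.0191% of all genes in each. The numbers with an unadjusted p under 0.05 were 0 with the empty vector and 5 with USP18, and DESeq2 called 0 and 1 (LDHA).

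Between CP18 and CP2 at 5 µM, 0 of 10 genes passed in empty-vector cells (background 0.0257%) and 0 in USP18 cells (0.00641%). No gene had an unadjusted p under 0.05, and DESeq2 called 0 in each. Of the differences CP18 minus CP2, the narrowest intervals were those of PFKFB3 (-0.01 to 0.16 in empty-vector cells and -0.11 to 0.06 in USP18 cells) and LDHA (-0.08 to 0.10 and -0.15 to 0.03). For CA9 the interval was -0.02 to 0.69 in empty-vector cells and -0.23 to 0.61 in USP18 cells, so a sizeable difference in CA9 between these compounds cannot be set aside at this depth. CP2 at 2 µM had no counterpart among the other compounds and was not compared with them.

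USP18 cells and empty-vector cells differed in 8 of the 10 genes with vehicle alone. These 8 passed, against 57.6% of all genes, and 2 were higher and 6 lower in USP18 cells, against 29% and 28.7%. SLC2A1 stood at 129, 126 and 128 CPM in empty-vector cells and at 69.1, 67.8 and 70.0 CPM in USP18 cells, 1.85-fold lower (log2 -0.89, SE 0.03, edgeR adjusted p = 6.70e-14). HK2 was 1.83-fold higher (log2 0.87, SE 0.16, adjusted p = 1.27e-04). CA9 was lower by 0.62 (SE 0.11, adjusted p = 1.63e-04), NDRG1 by 0.34, PFKFB3 by 0.24, VEGFA by 0.20 and LDHA by 0.18, whereas ADM was higher by 0.27 (highest adjusted p of these 5 genes 8.86e-04). PDK1 (log2 0.09, 95% interval -0.10 to 0.28, adjusted p = 0.428) and ANKRD37 (0.51, -0.06 to 1.08, adjusted p = 0.116) did not pass. The 5 epithelial markers also summed to a lower level in the vehicle libraries of USP18 cells (7212 to 7425 CPM) than in those of empty-vector cells (11160 to 11425 CPM), and their part in these differences was not tested. Whether other differences between the transfected cells had a part was not tested.

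Most of these differences were also present under treatment. With 2 and 5 µM CP2, 8 of 10 genes passed in each, against 56.7% and 52.2% of all genes. With 1, 2.5 and 5 µM CP14, 8, 7 and 7 passed, against 55.5%, 53.1% and 55.9%. With 1, 2.5 and 5 µM CP18, 7, 8 and 6 passed, against 55.6%, 54.2% and 48.1%. Counting vehicle, SLC2A1 was lower in USP18 cells in 9 of 9 comparisons (log2 -0.84 to -1.09), CA9 in 9 (-0.62 to -2.27), VEGFA in 9 (-0.20 to -0.51) and LDHA in 9 (-0.11 to -0.53). HK2 was higher in 9 of 9 (0.44 to 0.87), although its call with 1 µM CP18 was not made by DESeq2 and had an edgeR adjusted p of 0.0576 without replicate 1 of USP18 cells.

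NDRG1 and PFKFB3 had calls in both directions. The former was lower in USP18 cells in 8 of the 9 comparisons and higher with 5 µM CP14 (log2 0.20, SE 0.04, edgeR adjusted p = 4.45e-04). ADM was higher in USP18 cells in 7 of 9, with the largest difference at 5 µM CP14 (1.08, SE 0.08, adjusted p = 1.83e-10), and did not pass with 2.5 µM CP14 or 5 µM CP18. PFKFB3 was lower in 5 of 9 and higher with 5 µM CP2 (0.12, SE 0.03, adjusted p = 0.00354). Its call with 2.5 µM CP18 was lost without replicate 2 or 3 of empty-vector cells or replicate 1 or 2 of USP18 cells (0.0842 to 0.164). PDK1 and ANKRD37 passed in 0 of 9 by edgeR.

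Whether a treatment acted differently in the cell types was tested with an interaction term. With 5 µM CP14, 7 of 10 genes passed, against 27.7% of all genes tested, and with 2.5 µM CP14, 4 of 10, against 8%. Those at 2.5 µM were CA9, LDHA (-0.30, edgeR adjusted p = 4.75e-04), ADM (-0.40, adjusted p = 0.00585) and SLC2A1 (-0.19, adjusted p = 0.0218), each lower in USP18 cells relative to the response of empty-vector cells. The SLC2A1 call was lost without replicate 2 of either empty-vector group or replicate 1 or 3 of USP18 vehicle (0.0518 to 0.0649). With 5 µM CP2 and with 1 µM CP18, 1 gene passed in each (PFKFB3), against 0.92% and 7.19%. No gene passed with edgeR for 2 µM CP2 (background 0.0569%), 1 µM CP14 (5.79%), 2.5 µM CP18 (0.197%) and 5 µM CP18 (0.268%). There, 1, 4, 5 and 6 genes had an unadjusted p under 0.05, and DESeq2 called 0, 2, 1 and 1. USP18 RNA in USP18 cells itself stood at 1307 ± 18.5 CPM with vehicle (SD, n = 3). With 5 µM CP14 it was higher, at 2047 ± 76.2 CPM. In the other treated groups its mean lay below vehicle, from 981 ± 30 CPM (1 µM CP18) to 1271 ± 44.2 CPM (5 µM CP2). The part of USP18 RNA in these differences in response was not tested.

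**Figure D5:**
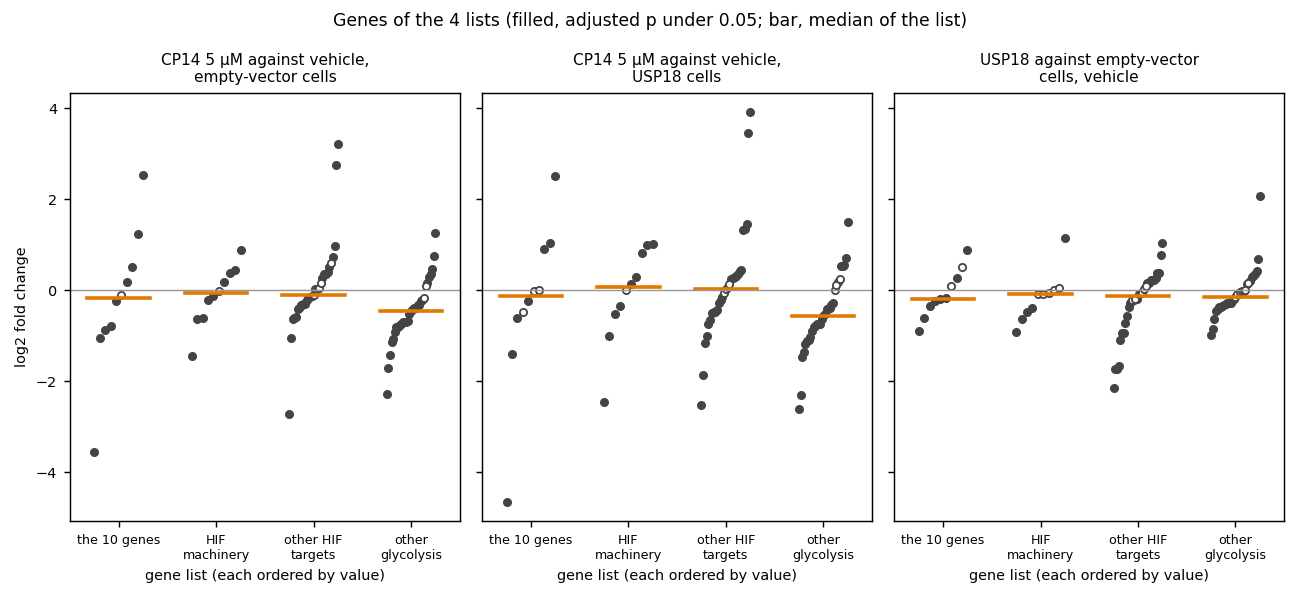
Log2 fold changes of the 10 genes and of 3 further lists with 5 µM CP14 in each cell type and between the cell types with vehicle. Each point is a gene, filled where the edgeR adjusted p was under 0.05, ordered by value within its list, and bars mark the list medians. The other glycolysis genes have medians of -0.46 and -0.58 with 5 µM CP14, and the other lists have medians within 0.17 of 0 there.

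Other genes of the same pathways were read from 3 lists. Each list held both rises and falls with 5 µM CP14. Of 32 further genes of glycolysis and pyruvate use, 31 were tested. With the empty vector 23 fell and 6 rose, and with USP18 22 fell and 6 rose. Of all genes, 32.1% fell and 31% rose with the empty vector, against 34.3% and 34.4% with USP18. The median log2 fold change was -0.46 and -0.58, as compared with 0.01 over all genes in each. TMM scaling brings the median over all genes close to 0, so these changes are relative to the other RNA of each library. PDK4, a pyruvate dehydrogenase kinase, fell by 2.27 in empty-vector cells, from 278 to 57.9 CPM (edgeR adjusted p = 3.54e-17). In USP18 cells it fell by 2.60, from 1161 to 193 CPM (adjusted p = 4.89e-19). ALDOC, a brain-type aldolase, fell by 1.43 and 2.29 from a low level of 3.54 and 3.92 CPM. The glucose transporter SLC2A3 fell 3.25-fold in empty-vector cells, and PDHB, a subunit of pyruvate dehydrogenase, by 1.47 in USP18 cells. The largest rises were those of PDP1, the phosphatase that switches pyruvate dehydrogenase on (1.26 and 1.51), followed by PFKFB4 (0.74) and PFKP (0.47) in empty-vector cells and by PFKP (0.70) and TIGAR (0.55) in USP18 cells.

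Among 11 genes of the HIF machinery, 10 were tested. With 5 µM CP14, 4 rose and 5 fell in empty-vector cells, and 5 rose and 4 fell in USP18 cells (medians -0.07 and 0.07), where 63.2% and 68.6% of all genes were called. The rise of EGLN2 in USP18 cells (edgeR adjusted p = 0.0431) was not called by DESeq2, nor without vehicle replicate 2 or treated replicate 2 or 3 (0.0879 to 0.126). The hydroxylase gene EGLN3, itself induced by HIF, fell by 1.44 in empty-vector cells, from 28.2 to 10.4 CPM (edgeR adjusted p = 1.44e-11). In USP18 cells it fell by 2.46, from 18.2 to 3.31 CPM (adjusted p = 4.44e-14). EGLN1 fell by 0.61 and 1.01, and CITED2, a competitor of HIF for its coactivators, by 0.63 and 0.51. EPAS1, which encodes HIF-2 alpha, rose by 0.45 and 1.01, ARNT2 by 0.88 and 1.00 and VHL by 0.37 and 0.81. HIF1A fell by 0.13 and 0.36 (edgeR adjusted p = 0.00448 and 2.30e-08).

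Of 32 other reported HIF targets, 29 were tested with 5 µM CP14. In empty-vector cells 9 rose and 14 fell, and in USP18 cells 12 rose and 13 fell (medians -0.10 and 0.02), against the same 63.2% and 68.6% of all genes called. STC2, a secreted stress glycoprotein, rose by 3.21 and 3.45, from 33.2 to 311 CPM and from 17.3 to 190 CPM (edgeR adjusted p = 9.01e-20 and 7.87e-20). DDIT4, an inhibitor of the growth kinase mTORC1, rose by 0.97 and 1.46. The lipid droplet gene HILPDA fell by 1.06 and 1.86 (edgeR adjusted p = 3.48e-09 and 2.74e-13), and TF, the iron carrier transferrin, (log2 -2.72 and -2.52) at levels of 1.68 CPM and below. CA12, another carbonic anhydrase, fell by 0.63 in empty-vector cells, and RIMKLA by 1.16 in USP18 cells.

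Between the cell types with vehicle, some genes of each of the same lists also differed. In the glycolysis and pyruvate list 8 genes were higher and 16 lower in USP18 cells (median -0.15), against 29% and 28.7% of all genes. PDK4 was higher by 2.07, at 1161 as compared with 278 CPM (edgeR adjusted p = 1.65e-18), followed by PDP1 (0.69) and PDHB (0.41). MPC1 was lower by 0.99, ALDOA by 0.85 and PFKFB2 by 0.63. In the HIF machinery EGLN1 was higher by 1.15 and EPAS1, EGLN3, ARNT2 and HIF1A were lower (4 of 10, EPAS1 by 0.91). The 5 of 10 called there were no larger a share than the 57.6% of all genes. Of the other HIF targets, 10 were higher and 13 lower, with CA12 (-1.74) and TF (-1.72) among the falls and ANGPTL4 (1.04), PPFIA4 (0.77) and FUT11 (0.38) among the rises. The PPFIA4 call (edgeR adjusted p = 0.0167) was not made by DESeq2 and was lost without replicate 1 of empty-vector cells or replicate 1 or 3 of USP18 cells (0.0513 to 0.0658).

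Fewer genes of the glycolysis and pyruvate list were called with 2.5 µM CP14 and with 5 µM CP2 or CP18 than with 5 µM CP14. With 2.5 µM CP14, 5 glycolysis and pyruvate genes rose and 14 fell in empty-vector cells, and 5 rose and 15 fell in USP18 cells, led by SLC2A3 (-0.47 and -1.21), where 15.1% and 32.7% of all genes were called. Of 30 other HIF targets tested at this dose, 2 rose and 3 fell in empty-vector cells, while 4 rose and 16 fell in USP18 cells (medians -0.05 and -0.14). Of 10 tested genes of the HIF machinery, 1 rose and 2 fell with the empty vector, and 3 rose and 4 fell with USP18.

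With 5 µM CP2 and CP18 the glycolysis and pyruvate calls were mixed in direction, while those of the HIF machinery were falls. The shares of all genes called were 12.1% and 19% for CP2 (empty vector, then USP18) and 8.4% and 10.7% for CP18. Of the 31 glycolysis and pyruvate genes, 2 rose and 3 fell with CP2 in empty-vector cells, and 4 rose and 5 fell in USP18 cells. With CP18, 3 rose and 1 fell in empty-vector cells, and 1 rose and 3 fell in USP18 cells. PDK4 fell in empty-vector cells (log2 -0.47 with CP2 and -0.36 with CP18), and SLC2A3 in USP18 cells (-0.68 and -0.64). The largest rise was that of PFKFB4 with CP18 in empty-vector cells (0.52, edgeR adjusted p = 0.0106), which was not called in a fit of the 2 groups alone or without vehicle replicate 2 (0.0684). PFKP rose in each of the 4 comparisons (0.18 to 0.25). Of the calls in this list, 1 of 5 and 4 of 9 with CP2 and 1 of 4 and 0 of 4 with CP18 (empty vector, then USP18) were lost without at least 1 library.

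In the HIF machinery, 4 of 10 genes fell and 0 rose in each of these 4 comparisons. EPAS1 was among them each time (log2 -0.24 and -0.21 with CP2, -0.26 and -0.27 with CP18, highest edgeR adjusted p = 0.00143), and CITED2 fell most in USP18 cells (-0.62 and -0.54). Of the 4 calls in each, 3 with CP18 in empty-vector cells, 1 with CP18 in USP18 cells and 1 with CP2 in empty-vector cells were lost without at least 1 library of the groups compared. Of the 30 other HIF targets, 3 rose and 3 fell with CP2 in empty-vector cells, as compared with 2 and 10 in USP18 cells. With CP18 the numbers were 3 and 0 (empty vector) and 3 and 5 (USP18). Without at least 1 library, 4 of the 6, 6 of the 12, 0 of the 3 and 5 of the 8 calls were lost in this order. STC2 rose in all 4 (0.46 and 0.34 with CP2, 0.43 and 0.57 with CP18), although the CP2 call in USP18 cells was lost without vehicle replicate 1 or 3 or treated replicate 1 (edgeR adjusted p from 0.0501 to 0.0732). The 5 epithelial markers summed to 9229 to 10061 CPM with 5 µM CP2 and 9774 to 10960 CPM with 5 µM CP18 in empty-vector cells, below vehicle. In USP18 cells the sums were 6605 to 6777 CPM, below vehicle, and 6946 to 7337 CPM, overlapping it, and their part was not tested.

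Over the 18 group means, the genes with the most similar pattern among 9962 others with a mean of at least 10 CPM were PGK1 for CA9 (Pearson r 0.98 of log2 CPM), SNRNP25 for LDHA (0.99), MIR100HG for HK2 (0.99) and BCL2L1 for VEGFA (0.99). They were CTNNA1 for NDRG1 (0.97), GCLC for PFKFB3 (0.97), DDX3Y for SLC2A1 (0.99), RSRC2 for ADM (0.92), PRKAR1A for PDK1 (0.86) and SETD1B for ANKRD37 (0.75). These are descriptions over groups that share 2 cell types and a set of treatments. Among the 10 genes themselves, 24 of 45 pairs had r above 0 and 21 below, from -0.98 for HK2 with LDHA to 0.97. Without the 2 groups of 5 µM CP14, 30 pairs were above 0 and 15 below, and 14 changed sign, such as VEGFA with LDHA (-0.64 to 0.71), so the signs of those 14 pairs rest on these 2 groups.

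Positions of the 10 genes are given on hg38 from GENCODE v44. SLC2A1 (ENSG00000117394) spans chr1:42925353-42958893 on the minus strand and HK2 (ENSG00000159399) chr2:74834127-74893359 on the plus strand. PFKFB3 (ENSG00000170525) lies at chr10:6144934-6254644, LDHA (ENSG00000134333) at chr11:18394560-18408425 and PDK1 (ENSG00000152256) at chr2:172555373-172608669. VEGFA (ENSG00000112715) spans chr6:43770184-43786487, ADM (ENSG00000148926) chr11:10305073-10307397, CA9 (ENSG00000107159) chr9:35673928-35681159 and ANKRD37 (ENSG00000186352) chr4:185396021-185400628, all on the plus strand. NDRG1 (ENSG00000104419) is on chromosome 8. All 10 are protein-coding, and the counts are summed over their transcripts. Reads of antisense or divergent transcripts next to SLC2A1, HK2, PDK1 and PFKFB3 can be split from them only by a stranded count, and the strand setting of the counting is not given in the sources used here.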

How the data were processed

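RNA sequencing of 54 libraries (18 groups of 3) was analysed from the values as deposited by the authors, which are expected counts per gene estimated by RSEM before deposition and not scaled between libraries. Of these, 94% were whole numbers, and 0 sample columns were left unused. According to the submitters' processing notes, reads were demultiplexed with bcl2fastq, trimmed with Cutadapt 1.18, aligned to hg38 with STAR 2.7.0f and counted with RSEM 1.3.1. The methods name another RSEM version and, for the counting step, a GTF whose release name belongs to the mouse series, whereas the identifiers are human (58472 of them are in GENCODE v44). The labels describe capture of polyadenylated RNA and the methods a ribosomal depletion, which would count different RNA classes.

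The 10 genes and the lists were chosen with earlier results of these data known. Expected counts were rounded and analysed with edgeR 4.0.16 in R 4.3.3 by its quasi-likelihood test after TMM scaling. Genes were kept by filterByExpr (minimum count 10, minimum total 15). P-values were adjusted by Benjamini-Hochberg over all genes tested, and a call needed an adjusted p under 0.05. Fits held 12 libraries, or 6 for vehicle alone. Levels are CPM after TMM scaling over 54 libraries, except those of the cell type markers, which are CPM of the library total. They are not compared between genes. These steps were first tested on simulated data.

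Named genes were the 10 members, up to 3 of the largest called rises and falls per list in the main comparisons and up to 2 elsewhere, the most alike gene of each member, and USP18, and 1 gene that this rule names is not reported here. Of 20 cell type markers, some are given only within a sum and 1 is not reported. HIF1A, EGLN2 and, with CP2 and CP18, EPAS1, PFKP and STC2 were named, and the comparison of 5 with 2.5 µM CP14 added, after their values were seen. Alternatives were RLE size factors, no filter, a stricter filter (10 or more counts in each library of the fit), DESeq2 1.42.0, a replicate block, a fit of 2 groups, a fit of all 54 libraries, leaving out each library, and CPM without TMM. All 54 pairs of replicates differed beyond sampling error, with a mean chi-square statistic of 1.8 to 11.1 for each gene. Figures were drawn with matplotlib. The comparison with parental A549 cells was not analysed here.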

Additional observations from a re-analysis of the deposited data

Results flagged for a closer look

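A difference in response between the cell types, by the interaction test of edgeR, drew attention to 13 results. With no filter on low counts there were 20 such calls. Each value is the log2 fold change in USP18 cells minus that in empty-vector cells. With 5 µM CP14 the values were 0.797 for ADM, 0.527 for NDRG1, 0.258 for PFKFB3, -0.209 for SLC2A1, -0.321 for VEGFA, -0.357 for LDHA and -1.094 for CA9. With 2.5 µM CP14 they were -0.192 for SLC2A1, -0.301 for LDHA, -0.396 for ADM and -1.654 for CA9. For PFKFB3 the value was 0.359 with 5 µM CP2 and 0.180 with 1 µM CP18. Of the 4 genes at 2.5 µM CP14, ADM alone had the opposite sign at 5 µM, and it passed at each dose. These tests share the vehicle libraries. Groups of 3 are too small for the check for single outlying samples, so none was made.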

How the results depend on the processing

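Under the alternatives run, 0 of the fold changes of the 10 genes that passed turned their direction. Of 3042 fold changes under the alternatives other than leaving out a library, 2976 kept their side of the threshold, 25 calls were lost and 41 gained. A test that gave no adjusted p was counted as keeping its side. Of 5340 without 1 library, 5206 kept it, 106 were lost and 28 gained, and 27 of 182 calls were lost without at least 1 library of the groups compared. The count against vehicle was 49 calls in 16 comparisons (45 to 50 under the other alternatives, 41 to 51 without 1 library). Calls of a different response in the cell types numbered 13 and reached 20 with no filter on low counts. The cause was not tested. The 5 genes called with 2.5 µM CP14 in empty-vector cells were 3 with DESeq2, which gave 1 of the 5 no adjusted p, and 2 to 5 without 1 library. Calls between the cell types numbered 8 with vehicle under every alternative and 59 under treatment (58 to 60), those between compounds 36 (31 to 38), and those between 5 and 2.5 µM CP14 17 (14 to 18). DESeq2 lost 9 calls and gained 9, leaving aside calls for which it gave no adjusted p. Fits of the compared groups alone lost 5 of theirs. Without TMM, 10 of 180 group levels moved by more than 1 SD. Replicate numbers gave no pairing: the correlation of same-numbered libraries ranged from -0.274 to 0.483 with a median of -0.012, and every pair exceeded 0.1 in 2 of 37 comparisons. With the replicate block 3 calls were lost and 3 gained among 450 tests, and 9 genes called with 5 µM CP14 in empty-vector cells became 8. Counts per library limit CA9 and ANKRD37 most, with replicate SDs of up to 58.7% and 50.3% of the mean. Intervals cover the spread between these libraries only.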
